A study of Xenopus tropicalis with 26 samples.

Results

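Very long features of the genome were followed through early development of Xenopus tropicalis, the western clawed frog. A feature, here a stretch of the genome to which the deposited table gives read counts, was taken when its end minus its start plus 1 reached 200000 bp. This rule used positions alone and found 355 of 27836 features, 1.28% of all. They were set beside 7986 features of 10 to 30 kb, a span near that of an ordinary gene, and beside 1051 features of 100 to 200 kb. Expression values did not decide which features passed the length rule. The rule and the comparison classes were chosen with earlier results of these data known.

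The length of a gene lies mostly in its introns. RNA polymerase has to cross the whole of it before a finished, polyadenylated transcript exists, so a very long gene needs much longer for its first transcript than a short one. In a frog embryo the early cleavage divisions follow each other fast and run largely on maternal RNA laid down in the egg. Transcription of the embryo's own genome starts broadly around the mid-blastula transition, when the cell cycle lengthens. Vertebrate genes of very great length are often genes of neurons, muscle and cell adhesion, although the identifiers here carry no gene names.

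Embryos were whole-embryo pools of 2 families at stages 6 and 8 (cleavage and blastula), 11 (gastrula), 15 (neurula) and 28 (tailbud) in the usual staging of Xenopus. All 10 pools gave a library of whole transcriptome target sequencing (WTTS), in which RNA is fragmented and polyadenylated pieces are kept, so that reads come from transcript ends. The 6 pools of stages 6, 8 and 11 also gave RNA-seq libraries, whose reads usually come from along the transcript. Adults were whole-body RNA of 1 female, with 2 technical WTTS repeats, and 1 pool of 3 males and 3 females, with 7 WTTS trials and 1 RNA-seq library. No genotype, strain or age in years was given in the sources used here, and no library was treated. Each embryo value is a whole-body average: fewer cells of a type and less RNA per cell cannot be told apart.

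Embryo WTTS libraries held 1536128 to 6276132 counts and embryo RNA-seq libraries 110710673 to 131001449, so WTTS values rest on far fewer reads. The 7 pool trials held 8364595 to 42424000 counts, the 2 female repeats 11403853 and 22287985, and the adult RNA-seq library 73522777. Levels are given as CPM, counts scaled so that each library sums to 1000000, and are not scaled for length. The families are the biological replicates, and adult repeats are technical, so adults entered no test. Whether reads were counted by strand was not given, so those of overlapping features cannot be told apart.

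The very long features had a median span of 276789 bp. Their quartiles were 235257.5 and 348934 bp, with 219 of 200 to 300 kb, 109 of 300 to 500 kb and 27 of 500 kb and over. They spanned 112.28 Mb when summed, 181 on the plus and 174 on the minus strand, over 24 scaffolds. Scaffold_1 held 55 of them, scaffold_6 held 53 and scaffold_2 held 45. On scaffold_6 they were 2.70% of the features, against 1.53% on scaffold_1.

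Very long features overlapped other features more often than short ones. Another feature overlapped 154 of the 355 (43.4%), against 23.5% of features of 10 to 30 kb. On the same strand it was 72 (20.3%), against 3.58%. Smaller features lay wholly inside 144 of them, up to 24 in one. They also stood in wider spaces. The median gap to the nearest feature that did not overlap was 21.4 kb, against 5.01 kb for features of 10 to 30 kb. That neighbour was itself 100 kb or longer for 41 of 353 (11.6%), against 3.93%.

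At the limit of the rule, XLOC_013773 (200330 bp) and XLOC_011293 (200341 bp) were just inside, and XLOC_000106 (199903 bp) and XLOC_021597 (199592 bp) just outside. Mean WTTS CPM of the 5 stages in order was 7.44, 12.2, 12.7, 23.6 and 137 for XLOC_013773 and 10.5, 10.1, 5.73, 4.93 and 7.62 for XLOC_011293. For XLOC_000106 it was 65.5, 80.0, 319, 212 and 149.7, and for XLOC_021597 53.6, 69.2, 25.5, 10.2 and 74.8.

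Each of the 355 very long features was counted in every embryo WTTS library. By the measure that a feature is on at a stage when both families have at least 1 CPM, all 355 were on at each of the 5 stages. By it every very long feature had its onset at stage 6, the first stage sampled. The lowest value of any of them in any embryo WTTS library was 1.02 CPM. Features of 10 to 30 kb, weighted to the same distribution of peak CPM, were on at stage 6 in 87.9% and at all 5 stages in 78.9%. Features of 100 to 200 kb weighted the same way were on at stage 6 in 99.1%.

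The lowest values grew with span, in both methods. Among features that overlap no other, the 5% quantile of WTTS CPM at stage 6 was 0.0797 for spans of 10 to 30 kb and 0.488 for 30 to 100 kb. It was 2.18 for 100 to 200 kb, 5.02 for 200 to 300 kb and 7.38 for 300 to 500 kb. For 500 kb and over, a class of 12 features here, it was 20.1. Divided by span it was 0.368 and 1.12 CPM per 100 kb in the 2 shortest classes, so it rose faster than span there. From 100 kb upward it varied far less, at 1.76, 2.25, 2.26 and 2.95 CPM per 100 kb. In RNA-seq at stage 6 it was 0.0927, 0.103, 0.0933 and 0.283 CPM per 100 kb over the same 4 classes. A floor was therefore read from each library as the 5% quantile of CPM per 100 kb over the 693 features of 100 to 200 kb that overlap no other feature. In WTTS at stage 6 the class used lay, per 100 kb, above features of 10 to 30 kb and below the very long ones. This step was added after seeing the data, and the source of the floor was not tested.

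The floor differed between methods, stages and families. In families 1 and 2 it was 1.49 and 1.69 CPM per 100 kb in WTTS at stage 6, 1.49 and 1.94 at stage 8, 1.19 and 2.67 at stage 11, 0.617 and 1.56 at stage 15, and 1.43 and 2.98 at stage 28. Family 2 thus had the higher floor at each stage. RNA-seq floors were 0.0926 and 0.0855 at stage 6, 0.103 and 0.107 at stage 8, and 0.334 and 0.428 at stage 11. The female repeats had 0.630 and 0.790, the pool trials 0.0544 to 0.869, and the adult RNA-seq library 1.44. A feature of 200 kb therefore had a floor of at least 1 CPM in each embryo WTTS library, by which the limit of 1 CPM could not sort very long features.

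**Figure D1:**
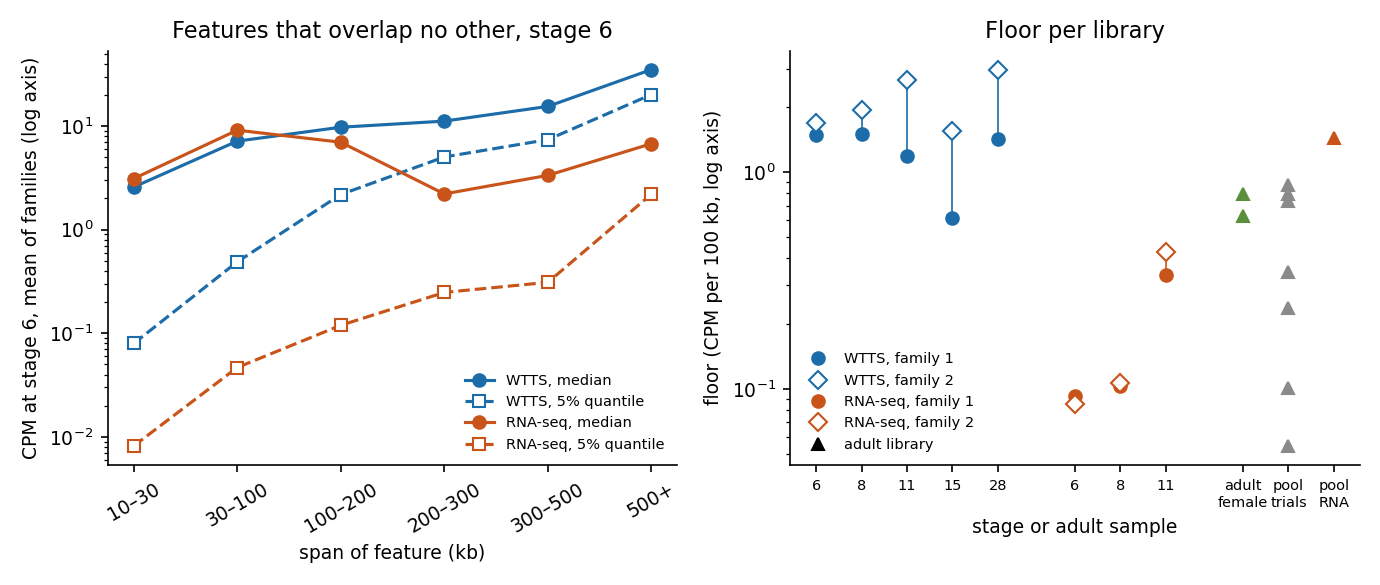
Left: CPM at stage 6, mean of the families, against span class for features that overlap no other feature, with medians (filled, solid) and 5% quantiles (open, dashed) of WTTS and RNA-seq on a log axis. Right: the floor in CPM per 100 kb in each library on a log axis; the 10 embryo WTTS floors lie between 0.617 and 2.98, and those of RNA-seq are near 0.1 at stages 6 and 8 and at 0.334 and 0.428 at stage 11.

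Against a limit of 3 times the floor of the library for the feature's span, in both families and at 1 CPM or more, onset was spread over the course. On were 139 very long features (39.2%) in cleavage, 187 (52.7%) in the blastula, 154 (43.4%) in the gastrula, 189 (53.2%) in the neurula and 210 (59.2%) in the tailbud. The first stage on was 6 for 139, 8 for 51, 11 for 26, 15 for 32 and 28 for 26. The other 81 (22.8%) did not reach the limit at any stage. Features of 10 to 30 kb of the same peak CPM were on at stage 6 in 87.5%, and 77.2% of them at all 5 stages, against 100 very long features (28.2%). The share with onset at stage 6 was 66.5% at 2 times the floor, against 87.9% of features of 10 to 30 kb, and 25.9% at 5 times the floor, against 85.2%. Fewer very long than short features passed at stage 6 at each of these 3 limits, by an amount that depends on the limit. The floor scales with span, so a very long feature needs more reads to pass it than a feature of 10 to 30 kb of the same CPM.

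RNA-seq, with its lower floor, separated the very long features at stage 6 with the limit of 1 CPM. On were 237 (66.8%) at stage 6, 246 (69.3%) at stage 8 and 330 (93.0%) at stage 11. Onset fell at stage 6 for 237, at stage 8 for 9 and at stage 11 for 86 (24.2%), and 23 (6.48%) were not on at any of the 3 stages. Of features of 10 to 30 kb of the same peak CPM in WTTS, 85.1% had onset at stage 6 and 6.83% at stage 11. Of features of 100 to 200 kb it was 73.3% and 14.0%. Both classes were weighted by peak CPM in WTTS, not by level in RNA-seq. Most very long features had a higher level in WTTS than in RNA-seq, as given below. These shares therefore do not compare features of equal RNA-seq level. The RNA-seq floor at stage 11 was 0.334 and 0.428 CPM per 100 kb, against 0.103 and 0.107 at stage 8. With a limit of 3 times the floor, 235 had onset at stage 6, 6 at stage 8 and 28 (7.89%) at stage 11, and 86 were not on at any. On at stage 11 itself were then 59.7%, fewer than the 66.2% of stage 6. The late onset at stage 11 was thus 24.2% or 7.89% of the very long features, depending on whether the floor was taken into account.

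The RNA-seq state at stage 6 also split the WTTS values. The 237 very long features on in RNA-seq had a median of 22.2 CPM in WTTS at stage 6, or 4.06 times the floor. The 118 not on had a median of 9.31 CPM, or 2.21 times the floor, at a median of 0.531 CPM in RNA-seq. Across the 118, WTTS CPM at stage 6 followed span, with a Spearman correlation of 0.468, and across the 237 it was 0.100. These are correlations across features of the same libraries, which are not independent replicates.

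The very long features together took a small share of all counts. In WTTS they held 1.16% and 1.27% of counts at stage 6, 1.22% and 1.67% at stage 8, 1.05% and 1.62% at stage 11, 0.877% and 1.34% at stage 15, and 1.42% and 2.27% at stage 28. In RNA-seq the 6 embryo libraries ranged from 1.08% to 1.22%. In adults the female repeats held 0.704% and 0.967%, the adult RNA-seq library 0.838% and the 7 trials 0.316% to 0.983%. The upper end is trial 2, where XLOC_007351 alone held 73.2% of the counts of very long features, and the others together held 0.263% of all counts. The median very long feature had 15.2 and 15.0 CPM at stage 6, 17.0 and 22.8 at stage 8, 14.1 and 26.3 at stage 11, 10.9 and 18.6 at stage 15 and 20.1 and 38.4 CPM at stage 28 in WTTS. In either family the tailbud median was the highest of the course and the neurula median was below both its neighbours. From stage 8 on, family 2 lay above family 1.

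**Figure D2:**
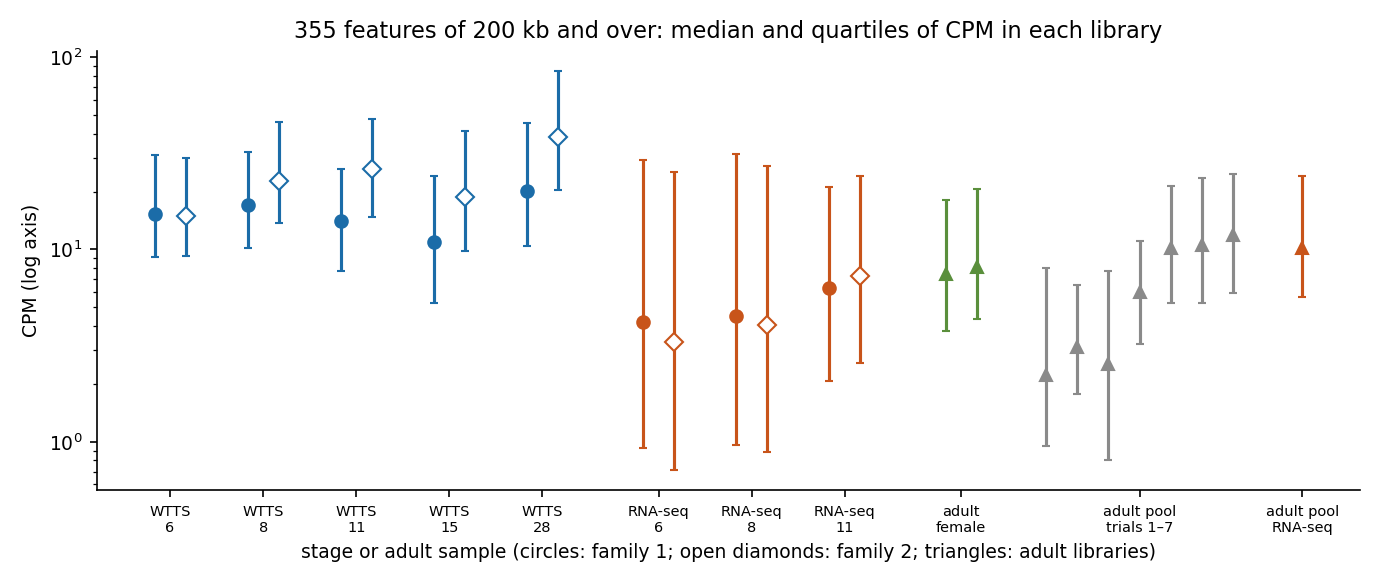
Median and quartiles (bars) of CPM over the 355 features of 200 kb and over, in each of the 26 libraries on a log axis. Tailbud medians, 20.1 and 38.4 CPM, are the highest WTTS medians of their families, and RNA-seq medians of stages 6 and 8 lie between 3.30 and 4.50 CPM.

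More very long features peaked in the tailbud than at any other stage. By mean CPM of the families, 21 (5.92%) peaked in cleavage, 94 (26.5%) in the blastula, 41 (11.5%) in the gastrula, 11 (3.10%) in the neurula and 188 (53.0%) in the tailbud. Features of 10 to 30 kb of the same peak CPM peaked at these stages in 27.8%, 32.9%, 8.93%, 8.00% and 22.3%. Features of 100 to 200 kb lay between, with 41.8% at stage 28 and 15.0% at stage 6. With the floor subtracted, 46.5% of the very long features peaked at stage 28, against 24.3% of features of 10 to 30 kb. In family 1 alone it was 42.5% and in family 2 alone 54.9%. The share with a peak at stage 8 depended on the scaling, since it was 26.5% by column sums and 10.7% with TMM-scaled libraries, where the share at stage 28 was 50.4%.

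The level at stage 6, as a share of the peak mean, is called the maternal share here, since few genes of the embryo are transcribed at this stage. Its median over the very long features was 54.3%, with quartiles of 30.6% and 71.3%. For features of 10 to 30 kb of the same peak CPM the median was 81.6%. With the floor subtracted the medians were 42.7% and 77.8%. At the low end, 17 very long features (4.79%) had a maternal share under 10%, against 14.0% of features of 10 to 30 kb. With the floor subtracted these were 10.1% and 16.2%. Without the floor subtracted, the families differed, with a median of 70.1% in family 1 alone and 39.2% in family 2 alone. The medians of features of 10 to 30 kb by family are not given here, so the gap to them is shown only for the mean of the families.

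**Figure D3:**
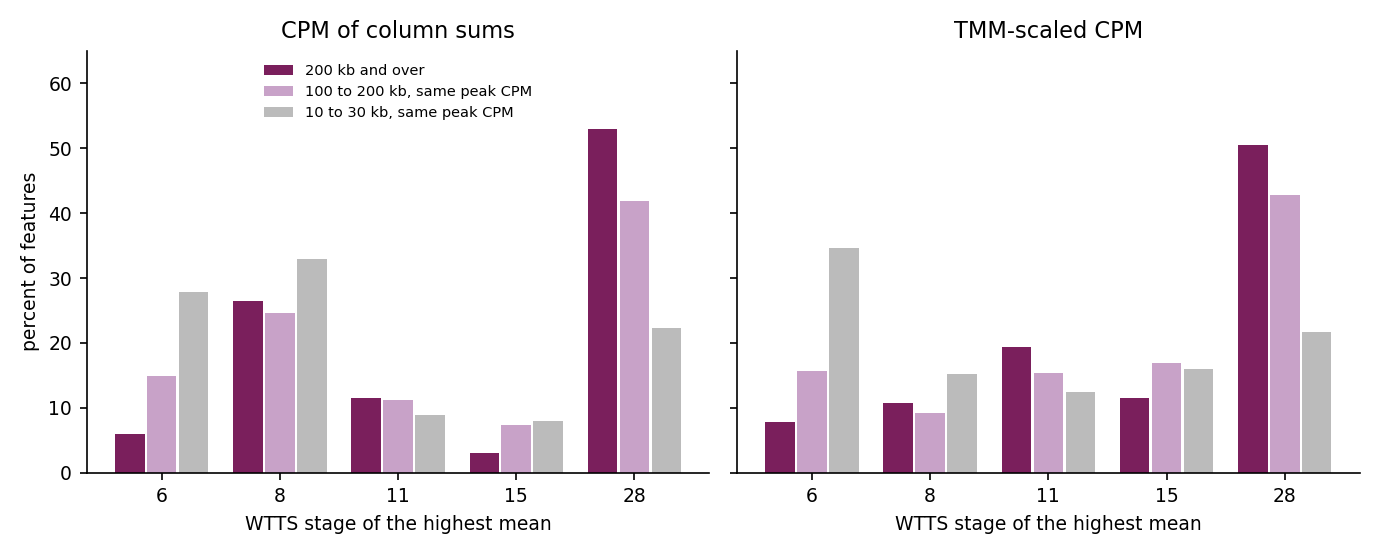
Percent of features whose mean CPM of the families is highest at each WTTS stage, for features of 200 kb and over, of 100 to 200 kb and of 10 to 30 kb, the last 2 weighted to the same peak CPM. Left, CPM of column sums, with 53.0% of the longest class at stage 28; right, TMM-scaled CPM, with 50.4% there and 10.7% in place of 26.5% at stage 8.

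Span within the very long features went along with these shares. Of those of 200 to 300 kb, 300 to 500 kb and 500 kb and over, 54.3%, 52.3% and 44.4% peaked at stage 28 and 22.4%, 29.4% and 48.1% at stage 8. They were on in RNA-seq at stage 6 in 63.0%, 68.8% and 88.9%. That limit of 1 CPM does not scale with span. Of these classes, 132, 57 and 12 features overlap no other feature. Their RNA-seq medians at stage 6 were 2.21, 3.34 and 6.74 CPM, but 0.920, 0.775 and 1.00 CPM per 100 kb. The peaks are by column sums, and the share at stage 8 depended on the scaling, as given above. The last class has 27 features, and these differences were not tested.

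The 2 longest features had their highest WTTS values in the tailbud. XLOC_001674, on scaffold_1 from 206455189 to 207474450, plus strand, spans 1019262 bp and overlaps no other feature. In WTTS its 2 families had 36.9 and 34.4 CPM at stage 6, 36.3 and 53.4 at stage 8, 26.3 and 63.0 at stage 11, 13.6 and 31.5 at stage 15 and 59.6 and 98.8 CPM at stage 28. These were 2.08 to 3.67 times the floor as stage means, highest at stage 28. In RNA-seq it had 1.63 and 1.91 CPM at stage 6, 1.70 and 2.10 at stage 8 and 5.52 and 6.90 at stage 11, with stage 11 above both earlier stages. The RNA-seq log2 change between stages 11 and 8 was 1.60 on TMM-scaled counts. On that scale the RNA-seq floor changed by 1.61 and 1.89 log2 units in the 2 families, so the rise was no larger than that of the floor. XLOC_006225, on scaffold_2 from 48338875 to 49276235, plus strand, spans 937361 bp. Its highest WTTS values were 63.9 and 127 CPM at stage 28, against 18.4 and 39.9 at stage 15. The highest mean at a peak stage was that of XLOC_010737, on scaffold_3 from 36204668 to 36468139, minus strand. It had the most counts of any very long feature in 5 of 10 embryo WTTS libraries and in all 6 embryo RNA-seq libraries. It had 688 and 959 CPM in WTTS at stage 6, 698 and 946 at stage 8, 641 and 1035 at stage 11, 437 and 456 at stage 15 and 292 and 455 CPM at stage 28. These column-sum values of XLOC_010737 were lowest in the neurula and tailbud in both families. With TMM scaling, family 1 had 633 CPM at stage 15, above 598 at stage 6 and 583 at stage 8, and only the tailbud stayed lowest in both families. XLOC_006377, on scaffold_2 from 69641501 to 69855512, plus strand, led 4 other WTTS libraries and overlaps no feature. It had 295 and 821 CPM in WTTS at stage 6, 747 and 741 at stage 8, 1038 and 554 at stage 11, 217 and 460 at stage 15 and 636 and 470 CPM at stage 28. Its families had their highest values at different stages.

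Changes between stages were tested on counts over all features with edgeR's quasi-likelihood F-test, Benjamini-Hochberg adjusted over all features tested, with calls at an adjusted p below 0.05. Log2 changes are on TMM-scaled counts, and neighbouring comparisons share the libraries of a stage. All 355 very long features passed the filter on low counts in WTTS and 354 in RNA-seq. Between stages 8 and 6 no very long feature was called, in WTTS (0 of 355) or in RNA-seq (0 of 354), by edgeR, DESeq2 or limma-voom. The share called over all features was 0.0% in both by edgeR. At an unadjusted p below 0.05 in edgeR there were 4 of 355 in WTTS and 7 of 354 in RNA-seq. The share over all features at that limit is not given here, so these counts show nothing particular to very long features. Over all features, DESeq2 called 77 in RNA-seq and 0 in WTTS. The median log2 change of the very long features was 0.15 in WTTS, against -0.10 over all features. A count of 0 does not show that levels at the 2 stages were equal.

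Between the gastrula (stage 11) and the blastula (stage 8), WTTS calls of very long features were mostly rises. Of 355, 45 were called (12.7%), against 21.4% over all features. Of these 40 rose (11.3%) and 5 fell (1.41%), against 11.4% and 10.0% over all features. The share that rose was near that of all features, and the share that fell was below it. The median log2 change was 0.32, against 0.02 over all features. The floor changed by 0.27 and 0.91 log2 units in the 2 families on the same scale. Of the 40 that rose, 34 were at 3 times the floor or more in both gastrula libraries. A call as a rise itself favours high values in those libraries, so this count is not separate from the calls. The log2 changes of all 40 were 1.07 to 4.76. The count of calls was 45, but 15 without the family 1 library of stage 8, 26 without family 2 of stage 8 and 25 without family 2 of stage 11.

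XLOC_023510 had the largest rise by the naming rule. It lies on scaffold_8 from 73834301 to 74039043, plus strand, and overlaps 3 features, 2 on its strand. WTTS values were 11.8 and 7.49 CPM at stage 6, 14.3 and 20.8 at stage 8, 476 and 118 at stage 11, 56.6 and 23.5 at stage 15 and 2.87 and 7.06 CPM at stage 28. It stood out at the gastrula in both families, and in the tailbud it was at 1.07 times the floor. The log2 change between stages 11 and 8 was 4.76 (SE 0.77, adjusted p = 0.000954). In RNA-seq it had 4.02 and 2.18 CPM at stage 11, against 0.427 and 0.825 at stage 8.

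XLOC_018186, on scaffold_6 from 68614827 to 68860075, plus strand, had a similar course in both methods. Its WTTS values were 7.86 and 5.58 CPM at stage 6, 8.15 and 7.16 at stage 8, 61.9 and 214 at stage 11, 22.8 and 48.8 at stage 15 and 1.75 and 12.6 CPM at stage 28. In RNA-seq it had 32.4 and 69.7 CPM at stage 11, against 1.05 and 0.883 at stage 8. The gastrula libraries lay above all others in both methods. The log2 changes between stages 11 and 8 were 4.55 in WTTS (SE 0.71, adjusted p = 0.000794) and 5.62 in RNA-seq (SE 0.52, adjusted p = 0.000253).

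The leading falls at the gastrula were of features with high values in cleavage and blastula embryos. XLOC_020852, on scaffold_7 from 85703886 to 86066075, plus strand, overlaps no other feature. It had 119 and 111 CPM in WTTS at stage 6, 113 and 109 at stage 8, 14.3 and 28.4 at stage 11, 4.09 and 17.3 at stage 15 and 27.7 and 59.2 CPM at stage 28. RNA-seq gave 116 and 122 CPM at stage 6, 107 and 103 at stage 8 and 6.10 and 6.79 at stage 11. Stages 6 and 8 lay far above stage 11 in both methods and families. The log2 change between stages 11 and 8 was -1.93 in WTTS (SE 0.47, adjusted p = 0.0118) and -4.13 in RNA-seq (SE 0.15, adjusted p = 1.29e-05). The WTTS call was lost without family 1 of stage 8 (log2 -1.79) and without family 1 of stage 11 (log2 -1.67). XLOC_002166, on scaffold_1 from 49929930 to 50171734, minus strand, also fell, to 27.0 and 26.3 CPM in WTTS at stage 11, against 109 and 151 at stage 8 (log2 -1.72, SE 0.36, adjusted p = 0.00473). Both features were above 20 times the floor at stage 6 and were at their peak there.

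**Figure D4:**
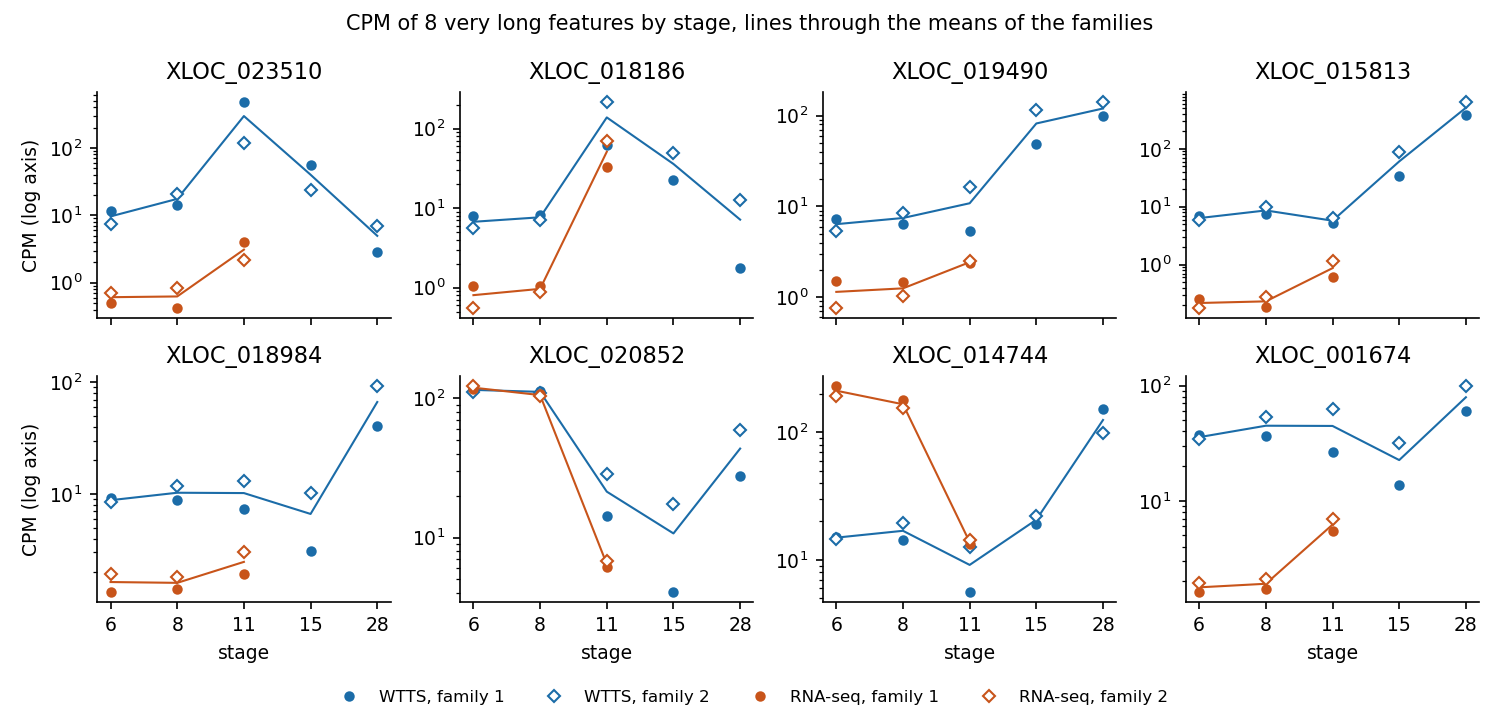
CPM of 8 very long features in the WTTS libraries of stages 6 to 28 and the RNA-seq libraries of stages 6 to 11, on log axes that differ between panels; lines join the means of the 2 families. XLOC_023510 and XLOC_018186 stand highest at stage 11, XLOC_015813 and XLOC_018984 at stage 28, and XLOC_020852 at stages 6 and 8.

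Between the neurula (stage 15) and the gastrula (stage 11), 24 very long features were called (6.76%), against 10.8% over all features. Of these 16 rose (4.51%) and 8 fell (2.25%), against 6.85% and 3.96% over all features. Both shares were below those of all features. The median log2 change was -0.26, against -0.07 over all features, and the floor changed by -0.75 and -0.49. All 16 that rose were at 3 times the floor or more in both neurula libraries, which also entered the calls. With family as a replicate block, 33 rose and 17 fell. The count of 24 was 4 without family 1 of stage 11, 10 without family 1 of stage 15 and 6 without family 2 of stage 15. Among features that overlap no other, 8 of 201 rose and 1 fell. Shares over all features with the block or without overlap are not given here. These counts are therefore not shown to be particular to very long features.

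XLOC_015813, on scaffold_5 from 59038778 to 59288040, plus strand, overlaps no other feature and led this comparison. It had 6.81 and 5.90 CPM in WTTS at stage 6, 7.47 and 9.76 at stage 8, 5.16 and 6.30 at stage 11, 34.1 and 87.0 at stage 15 and 387 and 636 CPM at stage 28. Neurula and tailbud values did not overlap with those of any earlier stage. It was at 1.62, 2.01 and 1.34 times the floor at stages 6, 8 and 11, and at 22.3 and 97.1 times at stages 15 and 28. The log2 change was 3.57 between stages 15 and 11 (SE 0.41, adjusted p = 0.00044) and 2.74 between stages 28 and 15 (SE 0.37, adjusted p = 0.000618). XLOC_019490, on scaffold_6 from 132639152 to 132856373, minus strand, had 49.1 and 115 CPM at stage 15, against 5.40 and 16.3 at stage 11 (log2 3.23, SE 0.46, adjusted p = 0.00163). It stayed high at stage 28, with 99.5 and 140.4 CPM.

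The features that fell in the neurula included XLOC_023510, at 56.6 and 23.5 CPM, against 476 and 118 at the gastrula (log2 -2.71, SE 0.69, adjusted p = 0.0272). This call was lost without family 1 of stage 11 (log2 -1.05) and without family 2 of stage 15 (log2 -2.14). XLOC_018675, on scaffold_6 from 141426194 to 141636800, plus strand, overlaps 7 features, 6 on its strand. It had 19.1 and 19.5 CPM in WTTS at stage 15, against 129.8 and 87.7 at stage 11 (log2 -2.30, SE 0.50, adjusted p = 0.0138). That call was lost without family 1 of stage 11 (log2 -1.74), family 1 of stage 15 (log2 -2.46) or family 2 of stage 15 (log2 -2.18).

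Between the tailbud (stage 28) and the neurula (stage 15), 53 very long features were called (14.9%), against 18.2% over all features. Of these 49 rose (13.8%) and 4 fell (1.13%), against 9.88% and 8.37% over all features. The share that rose was above that of all features and the share that fell below it. The median log2 change was 0.50, against 0.05 over all features. Features of 100 to 200 kb had 12.9% up, 2.80% down and a median of 0.38. The floor changed by 0.92 and 0.51 in the 2 families, so it moved with the result. Of the 49 that rose, 47 were at 3 times the floor or more in both tailbud libraries, which also entered the calls. The log2 changes of all 49 were 1.03 to 2.97. Those that overlap no other feature gave 30 up and 2 down of 201. With family as a replicate block, 89 rose and 6 fell. The matching shares over all features, with the block or without overlap, are not given here. The comparison with all features thus rests on the unblocked fit. The count of 53 was 9 without family 1 of stage 15, 31 without family 2 of stage 15, 22 without family 1 of stage 28 and 25 without family 2 of stage 28.

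The largest tailbud rise was that of XLOC_018984, on scaffold_6 from 45642621 to 45895308, minus strand, which overlaps no other feature. It had 9.17 and 8.44 CPM at stage 6, 8.83 and 11.7 at stage 8, 7.27 and 13.1 at stage 11, 3.07 and 10.2 at stage 15 and 41.0 and 92.2 CPM at stage 28. Both tailbud libraries lay above all others, and the earlier stages were at 2.18 to 2.36 times the floor. The log2 change was 2.97 (SE 0.49, adjusted p = 0.00205). The falls were led by XLOC_023510 (log2 -3.56, SE 0.77, adjusted p = 0.00895) and XLOC_018186 (log2 -2.88, SE 0.68, adjusted p = 0.0137), whose gastrula peaks are given above. The call of XLOC_023510 was lost without family 1 of stage 15 (log2 -2.57) or of stage 28 (log2 -3.16). That of XLOC_018186 was lost without family 2 of stage 15 (log2 -2.44) or family 1 of stage 28 (log2 -2.05).

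Over the whole WTTS course, 164 very long features changed with stage (46.2%), against 62.0% of all features. Of these 164, 10 peaked in cleavage, 11 in the blastula, 16 in the gastrula, 8 in the neurula and 119 (72.6%) in the tailbud. Of all features that changed, 33.9% peaked at stage 28. The median maternal share of the 164 was 30.2%, against 52.7% for all features that changed. That of the 191 very long features with no call was 65.5%. Calls and shares come from the same libraries, and a feature that rises after stage 6 has a low share by definition. The contrast of the 164 with the 191 is therefore a description.

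In RNA-seq, at its far greater depth, more very long features were called between the gastrula and the blastula. Of 354, 192 were called (54.2%), against 58.5% over all features. Of these 115 rose (32.5%) and 77 fell (21.8%), against 30.3% and 28.2% over all features. The share that rose was near that of all features and the share that fell below it. The median log2 change was 0.28, against 0.06 over all features. The count of 192 was 127 without family 1 of stage 8 and 122 without family 2 of stage 8. The RNA-seq floor changed by 1.61 and 1.89 log2 units in the 2 families, and the median change of the 115 that rose was 1.89. Of these 115, 63 (54.8%) were at 3 times the floor or more in both gastrula libraries. All 77 that fell were so in both blastula libraries. Calls favour high values in these same libraries, so the counts are not separate from the calls. What share of the rises the floor accounts for was not tested.

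The rises and falls fell on different very long features by their RNA-seq state at stage 6. Among the 117 tested that were not on at stage 6, 73 rose and 0 fell. Among the 237 that were on, 42 rose and 77 fell. The state at stage 6 comes from libraries of the same fit, and features below 1 CPM have little room to fall, so this is a description. The same split was not made for features of other spans, so it does not mark a trait of the very long ones.

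The 2 largest RNA-seq rises by the naming rule were not called in WTTS. XLOC_013949, on scaffold_4 from 40816185 to 41038129, minus strand, overlaps no other feature. It had 98.5 and 108 CPM in RNA-seq at stage 11, against 0.489 and 0.578 at stage 8 (log2 7.50, SE 0.23, adjusted p = 1.01e-05). In WTTS it had 7.27 and 13.7 CPM at stage 11, against 8.83 and 14.3 at stage 8, values that overlap. XLOC_010124, on scaffold_3 from 79671887 to 80225029, plus strand, which overlaps 1 feature on its strand, had 963 and 892 CPM in RNA-seq at stage 11, against 2.89 and 2.92 at stage 8. Its WTTS values were 22.3 and 41.0 CPM at stage 11, against 20.7 and 30.6 at stage 8, near 3 times the floor. The leading RNA-seq falls were those of XLOC_020852, given above, and XLOC_014744, on scaffold_4 from 124095962 to 124333804, minus strand. The RNA-seq values of XLOC_014744 were 231 and 195 CPM at stage 6, 179 and 154 at stage 8 and 13.2 and 14.4 at stage 11. The log2 change between stages 11 and 8 was -3.69 (SE 0.15, adjusted p = 1.82e-05). In WTTS it had 15.2 and 14.7 CPM at stage 6, 14.3 and 19.5 at stage 8, 5.63 and 12.6 at stage 11, 19.1 and 22.2 at stage 15 and 152 and 98.8 CPM at stage 28. Its highest WTTS values were thus those of the tailbud, a stage without RNA-seq.

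Over the 354 very long features tested in both methods, 24 rose in both between stages 11 and 8. These were 60.0% of the 40 WTTS rises and 20.9% of the 115 RNA-seq rises. The 5 WTTS falls were all falls in RNA-seq and made up 6.49% of its 77. Over all features WTTS called 21.4% and RNA-seq 58.5% between these stages. The overlap of calls was not counted for other features, so these shares are not particular to very long ones. One feature, XLOC_026015, rose in WTTS and fell in RNA-seq. On scaffold_9 from 47039733 to 47283021, plus strand, it had 63.6 and 141 CPM in WTTS at stage 11, against 37.0 and 54.7 at stage 8, and 55.5 and 75.8 CPM in RNA-seq at stage 11, against 167 and 165 at stage 8. Across the very long features the log2 changes of the methods had a Spearman correlation of 0.425, and across 4976 features of 10 to 30 kb 0.780. The methods share the embryo pools, and these correlations are across features. The sets were not matched by level or by level relative to the floor. The floor changed by different amounts in the methods, as given below. The correlation for features of 100 to 200 kb is not given here. The lower correlation is therefore not shown to be particular to very long features.

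A test of the difference itself, method by stage, called 38 very long features (10.7%) whose change between stages 11 and 8 was unequal in the 2 methods, against 3.68% of all features and 2.58% of those of 10 to 30 kb. In WTTS it was higher at 9 (2.54%) and lower at 29 (8.17%), against 1.15% and 2.53% of all features. Between these stages the floor changed by 0.27 and 0.91 log2 units in WTTS and by 1.61 and 1.89 in RNA-seq. The floor itself thus rose less in WTTS, the direction of the 29. What share of the calls it accounts for was not tested. Features of 100 to 200 kb were called in 9.61%. With embryo pool as a replicate block, 25 were higher and 51 lower, and the shares over all features with this block are not given here. The count of 38 was 23 without WTTS family 1 of stage 8, 21 without WTTS family 1 of stage 11, 13 and 17 without RNA-seq families 1 and 2 of stage 8, and 24 without RNA-seq family 2 of stage 11. Leading in each direction were XLOC_014744 (2.90, SE 0.38, adjusted p = 0.0029) and XLOC_026015 (2.73, SE 0.39, adjusted p = 0.00444), higher in WTTS, and XLOC_010124 (-7.77, SE 0.39, adjusted p = 2.39e-06) and XLOC_013949 (-7.49, SE 0.48, adjusted p = 1.33e-05), lower.

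**Figure D5:**
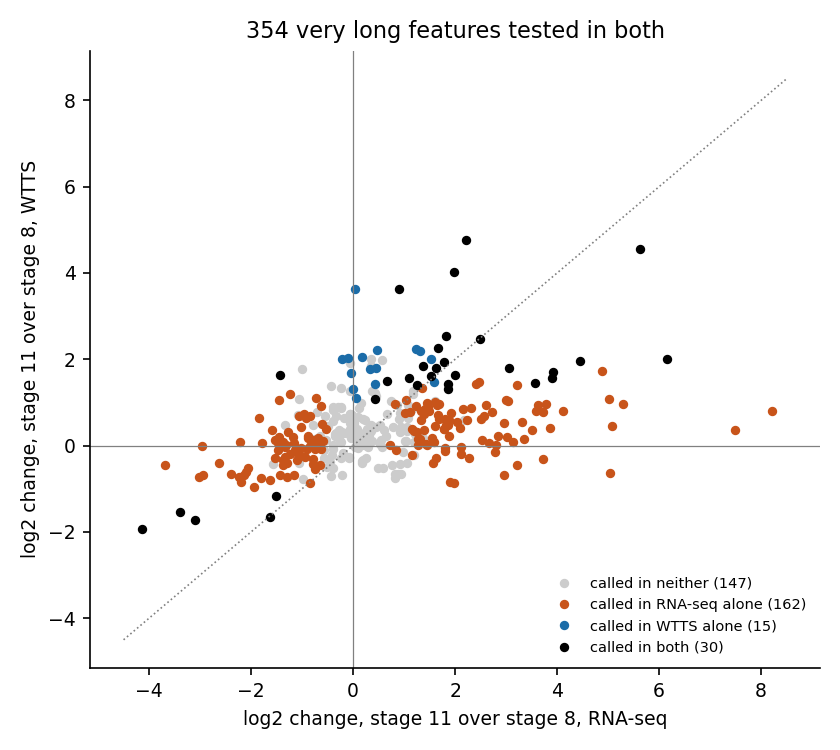
Log2 change between stages 11 and 8 of the 354 very long features tested in both methods, WTTS against RNA-seq, coloured by where they were called; the dotted line marks equal change. 30 features were called in both, 162 in RNA-seq alone, 15 in WTTS alone and 147 in neither.

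Most very long features had a higher level in WTTS than in RNA-seq of the same pools. With embryo pool as a block, 283 of 355 were called (79.7%), against 61.8% over all features. Of these 235 were higher in WTTS (66.2%) and 48 lower (13.5%), against 26.8% and 35.0% over all features. Their median log2 ratio was 1.61, against -0.17 over all features. DESeq2 size factors moved the median of all features to 0.05 and that of the very long features to 1.82, with 253 higher and 40 lower. Features of 100 to 200 kb were higher in 44.1% and lower in 28.0%. The instrument of each library was not named in the sources, and method and instrument cannot be told apart. The WTTS floor per 100 kb was 3.56 to 19.8 times that of RNA-seq in the same pool.

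By the smallest p, the most strongly WTTS-rich very long feature was XLOC_027617, on scaffold_9 from 90691560 to 91002259, minus strand. It had 43.5 and 39.2 CPM in WTTS at stage 6, 42.8 and 84.6 at stage 8 and 34.3 and 35.2 at stage 11, against 0.142 to 0.316 CPM in the 6 RNA-seq libraries (log2 7.52, SE 0.28, adjusted p = 2.04e-08). The methods did not overlap at any stage. It overlaps 4 features, none on its strand. XLOC_021140, on scaffold_7 from 115865397 to 116066316, plus strand, overlaps none and had 8.12 to 48.8 CPM in WTTS at these stages, against 0.425 to 3.09 CPM in RNA-seq (log2 4.01, SE 0.25, adjusted p = 5.19e-07). In the other direction, XLOC_020861, on scaffold_7 from 87047714 to 87250661, plus strand, had 37.3 to 82.7 CPM in WTTS, against 148 to 293 CPM in RNA-seq (log2 -2.04, SE 0.14, adjusted p = 7.77e-07). XLOC_008057, on scaffold_2 from 123159133 to 123453423, minus strand, was also lower (log2 -2.22, SE 0.14, adjusted p = 5.17e-07), and it overlaps 10 features, 7 on its strand.

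In adults most very long features were below their tailbud level, by comparison without a test. In the female, 317 of 355 (89.3%) had a lower mean CPM than in the tailbud, against 47.1% of 6714 features of 10 to 30 kb. Features of 10 to 30 kb were not weighted by peak CPM in this paragraph. Their median tailbud level was 8.53 CPM, against 31.1 for the very long features. The shares therefore do not compare features of equal level. The median log2 ratio, with 0.5 CPM added to each value, was -1.74, against 0.12. In the 7 trials of the pool, 318 to 348 very long features were below the tailbud. In trials 7, 6 and 5 these were 89.6%, 90.4% and 93.5%, against 47.4%, 47.1% and 55.2% of features of 10 to 30 kb. The other trials were not set beside features of 10 to 30 kb. Above all 5 stages in the female were 6 (1.69%), against 21.2% of features of 10 to 30 kb. Floors were 0.630 and 0.790 CPM per 100 kb in the female libraries, against 1.43 and 2.98 in the tailbud libraries. With the floor subtracted, 291 (82.0%) were below the tailbud in the female, against 44.2% of features of 10 to 30 kb, with median log2 ratios of -1.84 and 0.20. Adult bodies and whole embryos differ in tissue make-up, and the female libraries come from 1 animal. XLOC_015813 had 90.4 and 153 CPM in the female and 22.8 to 509 CPM in the 7 trials, with a median of 89.7, against 387 and 636 CPM in the tailbud. Of these 9 adult values, 8 lay below both tailbud values. The adult RNA-seq library had 82.4 CPM of it.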

How the data were processed

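The authors deposited raw whole-number counts of 27836 features in 26 libraries. Per the labels' protocols, RNA was extracted with Trizol, WTTS RNA was fragmented before polyadenylated pieces were selected, and Illumina and Ion Torrent instruments were used. Aligner, counting program, build, strand use and the base at which positions start are not stated in these sources. No identifier matched the gene table at hand (assembly UCB_Xtro_10.0). Features therefore carry their identifier alone, without sequence.

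Members, comparison classes and tests were chosen with earlier results of these data known. Counts were tested over all features with edgeR 4.0.16 (R 4.3.3), after filterByExpr and TMM scaling, by its quasi-likelihood F-test, at a Benjamini-Hochberg adjusted p below 0.05. All adjusted p-values come from this test, and SE is the absolute log2 change over the square root of F. The 10 embryo WTTS libraries were fitted together by stage, the 6 embryo RNA-seq libraries likewise. Methods were compared over 12 libraries, blocked by embryo pool, and the method-by-stage test used the same 12 unblocked. CPM, peaks, onsets and weights used Python 3.11.15, numpy 2.4.6 and pandas 2.3.3. The fit was also run on simulated counts with known changes. These were drawn without a family effect and without a floor that changes between stages, so the run does not show how the fit handles either.

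Named were up to 2 members per direction and comparison, called, at a mean log2 CPM from 3 upward and with groups that do not overlap, by size of change (by p, without the overlap condition, for the method tests). Besides these came the 2 longest, the 2 of highest peak, leading members per onset stage and the 4 features nearest the limit. XLOC_007351 and XLOC_026568 were chosen after their values were seen.

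Samples are paired by family, as each stage was labelled with the same 2 families. Deviations from stage means of the same family correlated at 0.102 to 0.398 over 9840 features in the 10 pairs of WTTS stages, and at 0.273 to 0.580 in the 3 pairs of RNA-seq stages. Every pair of replicates differed by more than sampling noise, the lowest chi-square over its degrees of freedom being 17.9. Each group holds 2 families, and the spread behind the p-values was estimated over all libraries fitted together. In the test of WTTS against RNA-seq it is the spread left after the embryo pool block. Alternatives were DESeq2 1.42.0 and its size factors, limma-voom (limma 3.58.1), no filter, the block, each library left out, other limits, thinned depth and, added after seeing the data, the floor.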

Additional observations from a re-analysis of the deposited data

Results flagged for a closer look

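One value of a very long feature stood far from the rest of its group of libraries. XLOC_007351, on scaffold_2 from 27713282 to 28192058, minus strand, had 7194 CPM in trial 2 of the adult pool, where it took 73.2% of the counts of all very long features. The other 6 trials had 7.00 to 50.5 CPM. The gap to the nearest trial was 0.994 of the range of the group, past the limit of 0.568 for 7 values. Chance alone takes about 1 of 20 groups past that limit only where the 7 values are like draws from 1 normal distribution. Pairs of these trials differed widely, with a chi-square over degrees of freedom of 59.5 to 2675. The limit therefore gives no chance level here, and this feature was chosen after its values were seen. The libraries of this 1 pool are labelled as trials, not as technical repeats. No comparison above rests on this value apart from the ranges over trials.

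The interaction test of edgeR called 38 very long features whose change between stages 11 and 8 differed between WTTS and RNA-seq, and 4 lead them by p, 2 in each direction. The difference in log2 change was 2.90 for XLOC_014744, 2.73 for XLOC_026015, -7.77 for XLOC_010124 and -7.49 for XLOC_013949. Of these, XLOC_013949 overlaps no other feature.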

How the results depend on the processing

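None of the 24 calls named by the tests reversed its direction under the alternatives run for it. Of their 232 recomputed values, 221 kept their side of the threshold and 11 lost it, each when 1 library was left out. Counts of calls that left the range of 1.5 times were as follows. For stage 15 against 11, 24 became 40 with no filter on low counts, 50 with family as a replicate block and 9 over members that overlap no other feature. For stage 28 against 15, 53 became 95 with the block, and for method by stage 38 became 76 with embryo pool as a replicate block. The block changed no other count by that much. Shares called over all features are given here for the main fits alone, so no changed count is shown to be particular to very long features. Leaving out 1 library gave 15 to 42 calls for WTTS stage 11 against 8, 4 to 31 for 15 against 11, 9 to 31 for 28 against 15, 132 to 163 for any change with stage, 249 to 283 for WTTS against RNA-seq, 122 to 180 for RNA-seq and 13 to 35 for method by stage.

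The shares of very long features on in WTTS, over the 5 stages in order, were 39.2%, 52.7%, 43.4%, 53.2% and 59.2% at 3 times the floor, in place of all of them. Onset at stage 6 was 66.5%, 39.2% and 25.9% at 2, 3 and 5 times the floor. At 3 times it was 39.8% without overlapping members, 52.4% in family 1 alone and 42.8% in family 2 alone. In RNA-seq, a limit of 5 CPM gave 41.1%, 43.7% and 53.5% on at stages 6, 8 and 11 and 13.2% with onset at stage 11. At 3 times the floor 59.7% were on at stage 11, and onset there was 11.5%, 7.89% and 4.79% at 2, 3 and 5 times. The peak at stage 8 was 10.7% with TMM-scaled CPM, and the maternal share with the floor subtracted 30.2% in family 2 alone. The causes were not tested. WTTS depth limits low values: 1 count is more CPM in the shallower libraries.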

Other observations

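A pair of very long features on opposite strands shares its lowest position, 90691560. The plus-strand feature begins there and the minus-strand feature ends there, in the direction of transcription. XLOC_026568 runs on scaffold_9 from 90691560 to 91011124, plus strand, over nearly the same stretch as XLOC_027617 on the minus strand. It overlaps 4 features, 3 on its strand, and 3 features lie inside it, and how reads were assigned among them is not stated. XLOC_026568 was given 0 counts in all 6 embryo RNA-seq libraries, which allows up to 0.0229 to 0.0271 CPM (3 counts, for counting error alone). In WTTS it had 17.3 and 15.3 CPM at stage 6, 18.0 and 36.5 at stage 8, 10.6 and 18.9 at stage 11, 4.09 and 6.65 at stage 15 and 6.22 and 13.3 CPM at stage 28, between 1.38 and 4.82 times the floor as stage means. The adult RNA-seq library, made from another RNA, had 3.73 CPM of XLOC_026568 and 46.6 CPM of XLOC_027617, and XLOC_027617 had 0.142 to 0.316 CPM in embryo RNA-seq. No other very long feature had 0 counts in an embryo RNA-seq library.

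The adult RNA-seq library had a floor of 1.44 CPM per 100 kb, against 0.0855 to 0.428 in the embryo RNA-seq libraries. All 355 very long features reached 1 CPM in it, and 138 of them were at 3 times the floor or more.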
